A study of Mus musculus with 2 samples.

Results

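Liver RNA of calorie-restricted (CR) and ad libitum fed (AL) mice was compared for 44 genes of the cytoskeleton, which encode actins and actin binders, myosins, tubulins and intermediate filament proteins. Members were chosen by gene symbol: a probe set, the group of short probes that reads one transcript on an array, was used where the annotation gave it the symbol of 1 member and no other. This rule found 95 probe sets of 39 members among 34945 probe sets of 18193 genes, together with the 3 control probe sets for beta-actin. For Actr2, Arpc1b, Arpc3, Tuba1b and Tuba1c the rule found no probe set, and they were not analysed here.

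Both diets were given to male C57BL/6J mice, an inbred strain, kept in single cages from 8 weeks of age, and livers were taken after 12 weeks, at 5 months. The CR mice received 20% less food in the first week and 40% less in the 11 weeks that followed, and the AL mice ate freely. Each diet is represented by 1 Affymetrix array hybridised with RNA combined from 3 mice, so that nothing was replicated and neither a p-value nor the spread between mice can be given. Differences below are on the log2 scale, CR minus AL, and a negative one means a lower intensity in the CR pool.

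Actin monomers join into filaments that carry the cell cortex and, in liver, surround the bile canaliculi between hepatocytes. Myosin motors pull on these filaments, microtubules of alpha and beta tubulin carry vesicles such as secretory cargo, and keratins 8 and 18 form the intermediate filaments of hepatocytes. Many genes of the actin system are known targets of serum response factor (SRF), which binds a motif called the CArG box, with its coactivators that sense free actin.

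The CArG box was looked for on both strands of the RefSeq promoter windows of GRCm38.p6, which run from 250 bases before to 50 after each annotated start. Windows were found for 41 of the 44 members, 47 windows in all, and not for Actb, Tubb6 and Krt19. The box was present in 4 of the 47 member windows (8.51%), against 535 of 32851 windows of all genes (1.63%). Those 4 belonged to gamma-actin, vinculin and the myosin light chains Myl6 and Myl9, and they are shown because SRF is a known regulator of this gene class. Capitals mark the box, and the letters run 5′ to 3′ on the strand of the gene.
Actg1, chr11:120348546-120348615, minus strand, box beginning 90 bases before the start: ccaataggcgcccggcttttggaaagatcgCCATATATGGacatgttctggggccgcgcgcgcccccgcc
Vcl, chr14:20929148-20929210, plus strand, box beginning 227 bases before the start: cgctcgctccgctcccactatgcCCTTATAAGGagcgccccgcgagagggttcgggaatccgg
Myl6, chr10:128493020-128493089, minus strand, box beginning 50 bases before the start: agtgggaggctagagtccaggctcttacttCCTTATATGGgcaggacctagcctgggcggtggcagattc
Myl9, chr2:156775273-156775342, plus strand, box beginning 161 bases before the start: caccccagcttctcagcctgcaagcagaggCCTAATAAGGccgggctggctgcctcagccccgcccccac
A match is a stretch of letters and not a site of binding. The 4 genes did not share a difference: Vcl stood at -0.98 and Actg1 at -0.57, Myl6 stood at 0.38, and Myl9 lay below the measured range in both pools. Among other short motifs searched on both strands, GGGCGG was in 36 of the 47 member windows (76.6%) against 35.7% of all windows. CCAAT was in 16 (34%) against 37.4%, and TATAAA in 5 (10.6%) against 13.6%. The letters GGGCGG stood in the windows of 34 of the 41 members, both those lower in the CR pool, such as Tubb5, and those higher, such as Tmsb10 and Flna.

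Members of the cytoskeleton list were mostly lower in the CR pool. The brightest probe set stood for its gene, and a gene counted as measured where at least 1 pool read 7.38 or more, the midpoint of all intensities on both arrays. Of the 39 members, 37 were measured, and Myl9 and the bile duct keratin Krt19 lay below that limit in both pools. Of the 37, 32 stood below 0, where 52.1% of all 12644 measured genes did. The list was drawn up with earlier results of these data known, so this contrast is a description only. The median member difference was -0.30, against -0.02 over all measured genes. At least 2-fold lower were 4 members, the beta tubulins Tubb6 and Tubb5, keratin Krt8 and the nonmuscle myosin heavy chain Myh10, where 2.79% of all measured genes were. No member was 2-fold higher, where 1.8% of all genes were. At 1.5-fold, 10 members were lower, with a background of 9.49%, and none higher, with a background of 6.76%.

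**Figure D1:**
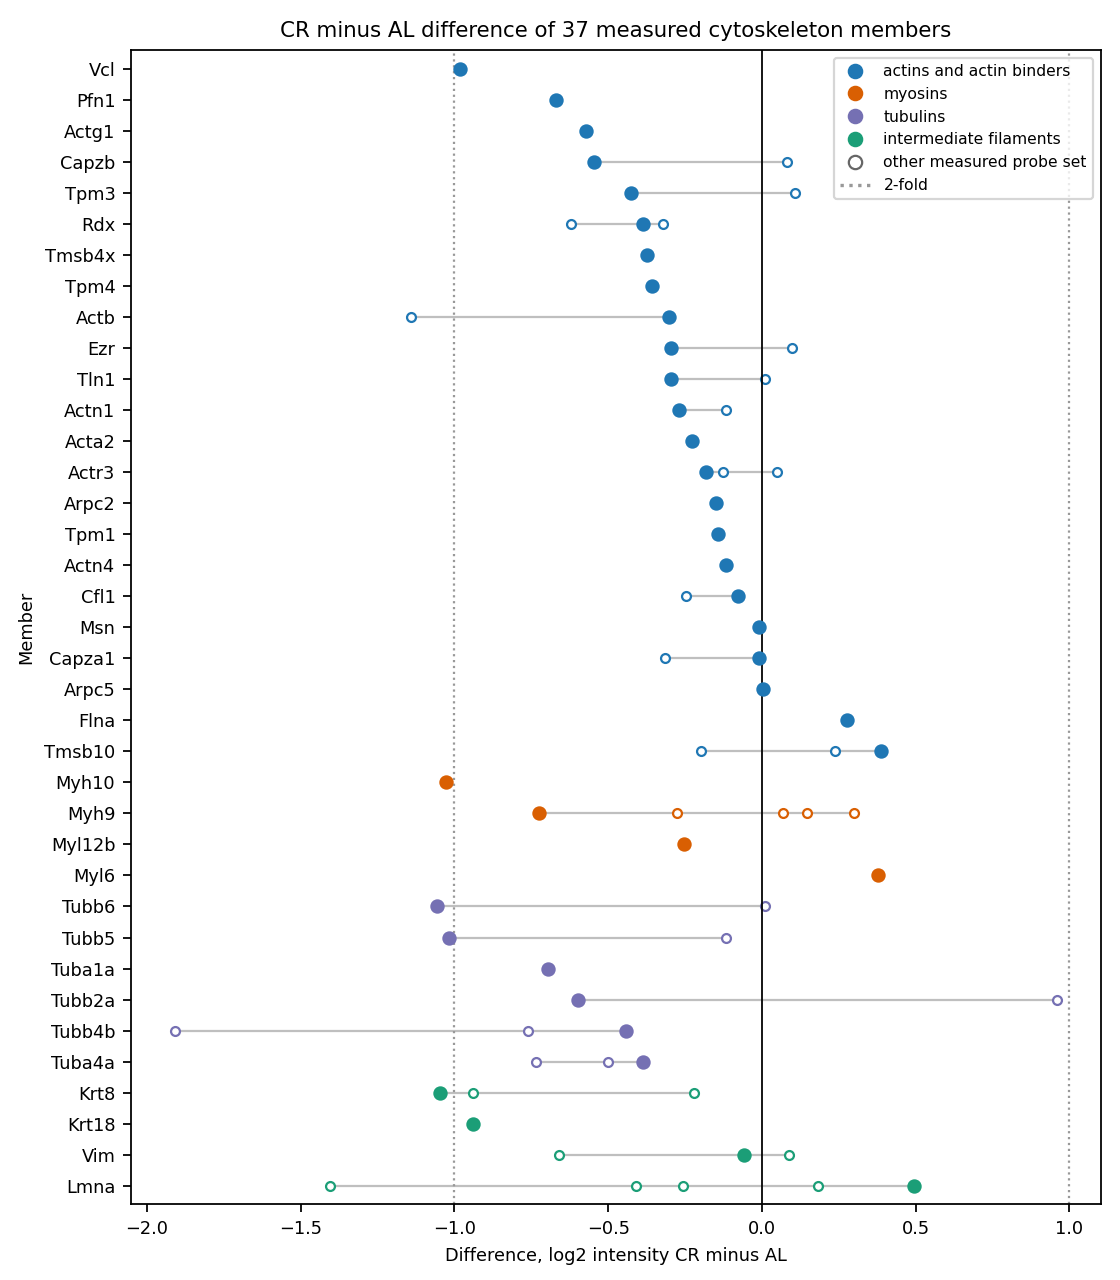
Differences (log2 intensity, CR minus AL, horizontal axis) of the 37 measured members, coloured by group. Filled points are each gene's brightest probe set, open points its other measured probe sets, grey lines join them, and dotted lines mark 2-fold. Of the filled points 32 lie left of 0, and 4 reach 2-fold lower.

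All 4 groups had medians below 0. Tubulins had the lowest median, -0.65, with all 6 measured members below 0. The 4 measured intermediate filament genes had a median of -0.50 and the 4 measured myosins one of -0.49, with 3 of 4 below 0 in each. The 23 actins and actin binders had a median of -0.27, with 20 below 0 and none 2-fold lower. Counted over single probe sets in the measured range, 11 of 13 tubulin probe sets, 9 of 12 for intermediate filaments, 28 of 37 for actins and binders and 4 of 8 for myosins stood below 0. The order of the groups depended on these choices: over probe sets the myosin median was -0.09, and with no intensity limit myosins stood at -0.25 and intermediate filaments at -0.24, beside -0.27 for actins and binders. Tubulins kept the lowest median in both, but not at the stricter intensity limit described below. There the 3 myosins left had a median of -0.73, below tubulins at -0.65. Over all members, 52 of 70 measured probe sets stood below 0, with a background of 52.2% of 20316 probe sets. At least 1.5-fold lower were 18 of the 70 (background 10.1%), and 7 were 2-fold lower (background 2.97%). Only 1, a probe set of Tubb2a, was 1.5-fold higher (background 7.27%), and none was 2-fold higher (background 1.99%). Probe sets of 1 gene read the same RNA pools and are not replicates.

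Tubulins are the subunits of microtubules and form a family of close paralogs, so that a probe set may also pick up another tubulin's RNA and single members are uncertain. Tubb6, a broadly expressed beta tubulin, had an intensity of 15.0 in the CR pool and 31.2 in the AL pool, a difference of -1.06. Its dimmer probe set read 8.22 in CR and 8.16 in AL, a difference of 0.01. Tubb5, a beta tubulin expressed in most tissues, read 94.8 in CR and 192 in AL, 2.02-fold lower. A second Tubb5 probe set read 108 in CR and 118 in AL and differed by -0.12. For both genes the size of the difference thus hung on the probe set.

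Tubb4b, another widely expressed beta tubulin, had 3 measured probe sets, all lower in the CR pool. Its brightest read 39.3 in CR and 53.3 in AL, a difference of -0.44. A second read 18.7 in CR and 70.1 in AL, at -1.91 the largest difference of any member probe set, and the third 14.1 in CR and 23.9 in AL, at -0.76. Tubb2a, a beta tubulin best known from neurons, went both ways. Its brightest probe set read 986 in CR and 1491 in AL, a difference of -0.60, whereas its other probe set read 73.7 in CR and 37.9 in AL, 1.94-fold higher.

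The alpha tubulins among the members, Tuba1a and Tuba4a, were lower on every probe set used. Tuba1a read 41.7 in CR and 67.5 in AL on its only single-symbol probe set, a difference of -0.70. Tuba4a had 3 probe sets, which read 4082, 824 and 23.5 in CR, against 5331, 1372 and 33.2 in AL. Their differences were -0.39, -0.74 and -0.50, so that none of the 3 reached 2-fold.

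Keratins 8 and 18, which pair with each other in the filaments of hepatocytes, were both lower in the CR pool. Krt8 read 321 in the CR pool and 663 in the AL pool on its brightest probe set, a difference of -1.05. A nearly equally bright probe set read 333 in CR and 638 in AL, at -0.94, and the third, of like brightness, 396 in CR and 461 in AL, at -0.22. Krt18 had 1 probe set, which read 363 in CR and 696 in AL, at -0.94. Krt8 was thus lower on all 3 probe sets, but reached 2-fold on the brightest alone, and the mean of the 3 was -0.74. Krt19, a marker of bile duct cells, read 4.95 in CR and 5.86 in AL, both below the measured range.

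The other intermediate filament genes showed no common direction. Vim, the filament protein of mesenchymal cells, read 62.4 in CR and 65.0 in AL, a difference of -0.06, and its dimmer probe sets stood at -0.66 and 0.09. Lmna encodes lamins A and C of the nuclear lamina, which arise by alternative splicing. Its brightest probe set read 111 in CR and 79.0 in AL, at 0.49 the highest brightest-probe-set difference of all members. A dimmer Lmna probe set read 18.0 in CR and 47.7 in AL, at -1.40, and its 5 probe sets together spanned -1.40 to 0.49.

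Nonmuscle myosin II consists of heavy chains, which are the motor, and light chains, which bind its neck. Myh10, the heavy chain of myosin IIB, read 12.3 in CR and 25.1 in AL, 2.04-fold lower, on its only measured probe set. Myh9, the heavy chain of myosin IIA, read 69.2 in CR and 114 in AL on its brightest probe set, a difference of -0.73. Its other 4 probe sets were dimmer and ran from -0.27 to 0.30, 3 of them above 0. The regulatory light chain Myl12b read 446 in CR and 532 in AL, a difference of -0.25. The essential light chain Myl6 read 13.2 in CR and 10.1 in AL on a dim probe set, the only one of its symbol alone, at 0.38. Myl9, the light chain of smooth muscle, read 4.23 in CR and 4.85 in AL, below the measured range.

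**Figure D2:**
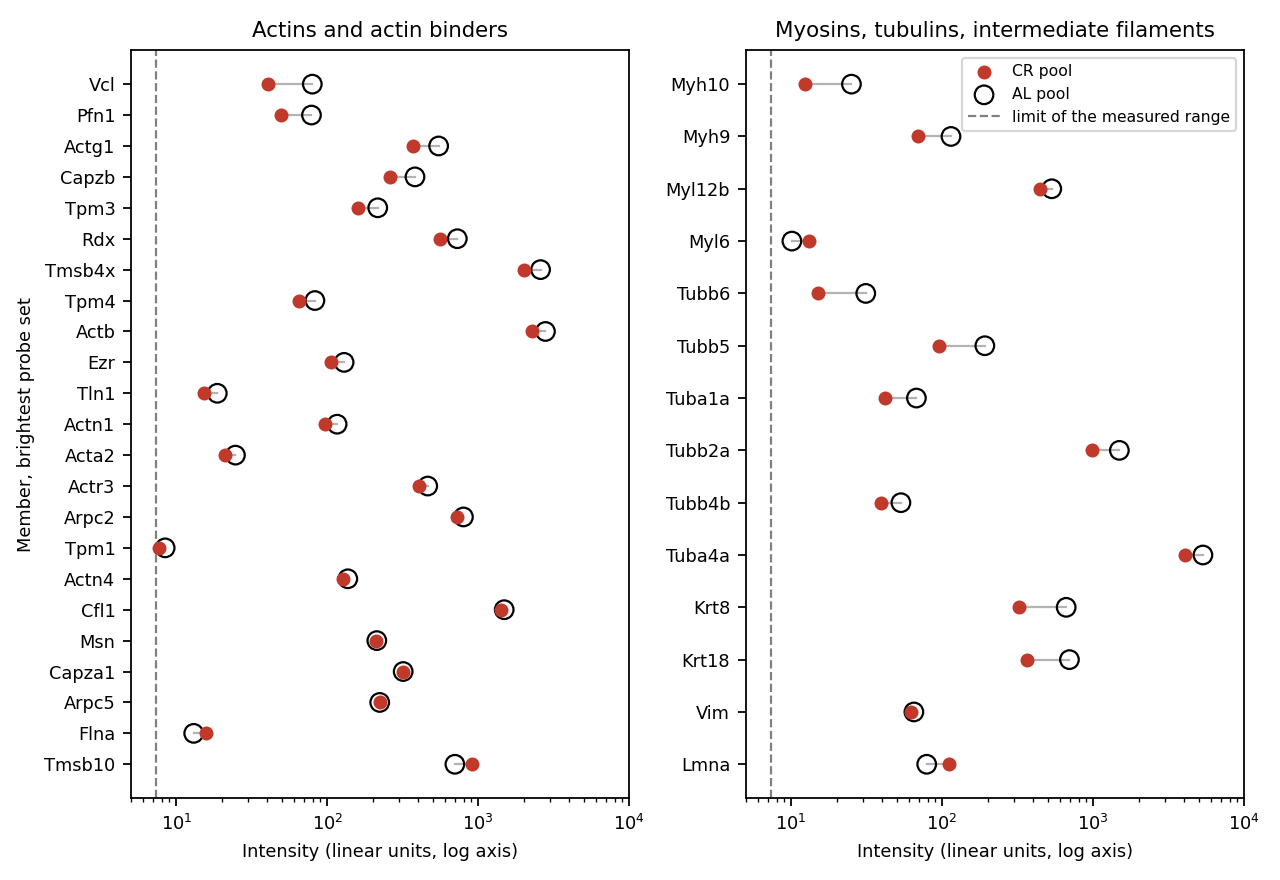
Intensity (linear units on a log axis) of each measured member on its brightest probe set, filled for the CR pool and open for the AL pool, with the limit of the measured range dashed. Levels of different genes are read by different probes and are not comparable. The CR point lies left of the AL point for 32 of 37 members, widest for Tubb6, Krt8, Myh10 and Tubb5.

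Actins themselves were lower by modest amounts on their brightest probe sets. Actb, the main cytoplasmic actin and a common reference gene, read 2261 in CR and 2784 in AL, a difference of -0.30, on its brightest probe set. Its second probe set read 552 in CR and 1218 in AL, at -1.14. Cytoplasmic gamma-actin, Actg1, read 367 in CR and 546 in AL, 1.49-fold lower. Acta2, the actin of smooth muscle and of activated stellate cells, read 21.1 in CR and 24.6 in AL, at -0.23. Beta- and gamma-actin are near-identical paralogs with many pseudogenes, so their separate values are uncertain.

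The 3 beta-actin control probe sets, which sample the 3′ end, the middle and the 5′ end of the transcript, were also lower in the CR pool. The 3′ set read 1425 in CR and 2357 in AL, at -0.73. In the middle set the intensity was 69.7 in CR and 213 in AL, at -1.61, and in the 5′ set 15.9 in CR and 28.2 in AL, at -0.83. The 5 beta-actin probe sets thus all stood below 0 but ran from -0.30 to -1.61. The ratio of 3′ to middle signal was 20.4 in CR and 11.1 in AL, and that of 3′ to 5′ signal 89.7 in CR and 83.5 in AL. The 3′ signal was thus many times the 5′ signal in both pools, though these sets are different probes, which also enter a ratio. Control sets for Gapdh, a glycolytic enzyme, behaved alike, with differences of -0.67 at the 3′ end, -1.11 in the middle and -0.85 at the 5′ end. For Gapdh the ratio of 3′ to middle signal was 6.04 in CR and 4.46 in AL, and that of 3′ to 5′ signal 53.2 in CR and 46.9 in AL. For pyruvate carboxylase, Pcx, the 3′ to 5′ ratio was 12.4 in CR and 12.7 in AL. The 4 sets for Pcx stood at 0.04 at the 3′ end, -0.28 and 0.01 in the middle and 0.08 at the 5′ end. The part of RNA integrity or labelling in the member differences was not tested.

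**Figure D3:**
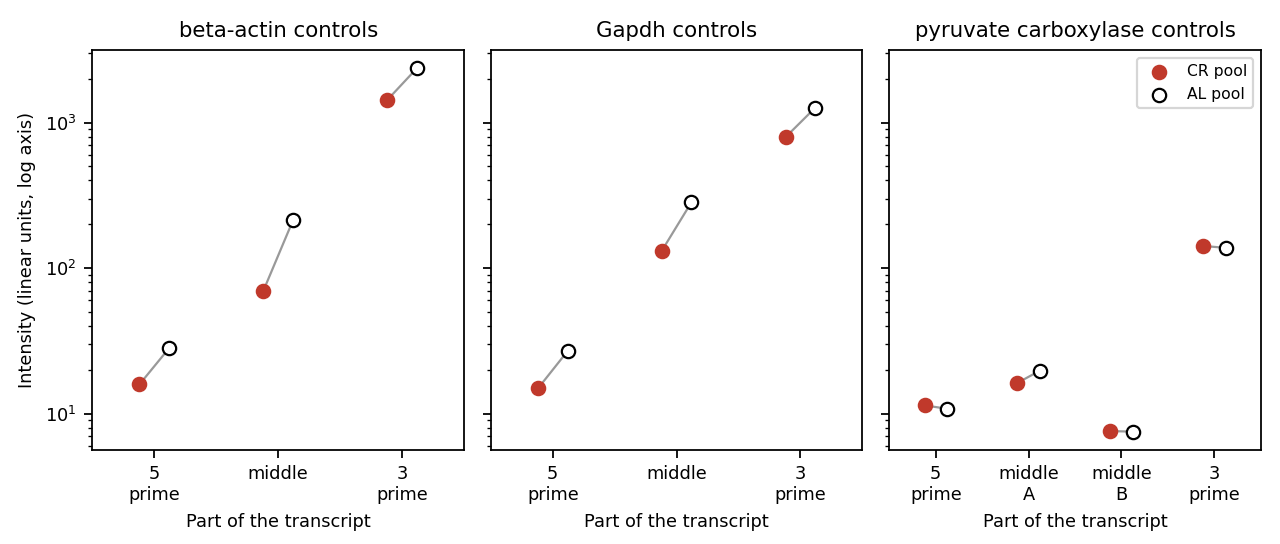
Intensity (linear units on a log axis) of the control probe sets by part of the transcript, for beta-actin, Gapdh and pyruvate carboxylase, with the CR pool filled and the AL pool open. All 3 beta-actin and all 3 Gapdh sets are lower in the CR pool, and the 3′ set is the brightest of each gene in both pools.

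Proteins that crosslink actin or tie it to adhesions were led by vinculin. Vcl, which links actin to integrin and cadherin adhesions, read 40.3 in CR and 79.6 in AL, 1.97-fold lower, just short of 2-fold. The integrin activator talin, Tln1, read 15.2 in CR and 18.7 in AL, at -0.29, and its other measured probe set stood at 0.01. The crosslinkers Actn1 and Actn4, both alpha-actinins, stood at -0.27 and -0.12. Filamin A, Flna, another crosslinker, read 15.8 in CR and 13.0 in AL, at 0.28.

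Among proteins that bind actin monomers or filament ends, profilin differed most. Pfn1, which feeds monomers to growing filaments, read 49.4 in CR and 78.6 in AL, a difference of -0.67. The capping protein subunit Capzb read 261 in CR and 381 in AL, at -0.55, but a dimmer probe set stood at 0.08. Its partner Capza1 stood at -0.01 and, on a dimmer probe set, at -0.31. Cofilin, Cfl1, which severs filaments, read 1406 in CR and 1484 in AL, at -0.08. The 2 thymosins, small proteins that hold actin monomers, went in opposite directions: Tmsb4x read 1993 in CR and 2585 in AL, at -0.37, and Tmsb10 read 915 in CR and 700 in AL, at 0.39. Of the 3 measured Tmsb10 probe sets 2 stood above 0 and the dimmest at -0.20.

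The 3 measured members of the Arp2/3 complex, which starts branched actin filaments, lay between -0.18 and 0.01. The actin-related subunit Actr3 stood at -0.18, with 3 probe sets between -0.18 and 0.05. Arpc2 read 718 in CR and 797 in AL, at -0.15, and Arpc5 read 223 in CR and 222 in AL, at 0.01. The median of these 3 subunits was -0.15. Of the complex's subunits in the wider list, Arpc4 stood at -0.43, with its other probe set at -0.37, Arpc1a at 0.22 and Arpc5l at -0.12.

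Tropomyosins, which lie along actin filaments, stood at -0.43 for Tpm3, -0.36 for Tpm4 and -0.14 for Tpm1. Tpm1 was close to the lower limit, at 7.65 in CR and 8.44 in AL, and a second Tpm3 probe set stood at 0.11. Of the linkers between actin and the plasma membrane, radixin, Rdx, the main one at bile canaliculi, read 555 in CR and 726 in AL, a difference of -0.39. All 3 Rdx probe sets were lower, down to -0.62. Ezrin, Ezr, stood at -0.29, with its dimmer probe set at 0.10, and moesin, Msn, at -0.01.

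Agreement between probe sets bounded what single members show. Of the 37 measured members, 17 had 1 probe set in the measured range and 20 had several. In 9 of the 20 every measured probe set was lower in the CR pool, namely Actb, Actn1, Cfl1, Capza1, Rdx, Tuba4a, Tubb4b, Tubb5 and Krt8. In the other 11 they had both signs, and in none were all higher. Over all genes with several measured probe sets, both signs occurred in 52.7%, near the share of 11 in 20 among members. The typical SD between probe sets (the median over genes) was 0.29. How many of all such genes were lower, or higher, on every probe set was not counted, so the 9 have no background.

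Most members lay inside the central range of all measured genes. The central 95% of gene differences ran from -1.04 to 0.89, and 2 members, Tubb6 at percentile 2.44 and Krt8 at percentile 2.48, lay below it. Myh10 and Tubb5 followed at percentiles 2.62 and 2.67, Vcl at 2.93 and Krt18 at 3.35. With a stricter limit, the 75th percentile of all values (intensity 21.0), 30 of 33 members stood below 0, with a background of 52.7% over 7581 genes, and 10 were 1.5-fold lower, with a background of 12.5%. At that limit 4 members were 2-fold lower, with a background of 4.25%, and none was 2-fold or 1.5-fold higher, with backgrounds of 2.78% and 9.1%. The member median was then -0.37, against -0.03 over all genes at that limit. Of the 4 lower members, Myh10 (12.3 in CR, 25.1 in AL) and Tubb6 (15.0 in CR, 31.2 in AL) reached 21.0 in the AL pool alone. The stricter limit is thus no separate support for these genes. The mean over all of a gene's probe sets, in place of the brightest, took in those below the measured range. With that mean no member reached 2-fold, the member median was -0.19 against -0.03 over all genes, and the myosin median was -0.02.

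**Figure D4:**
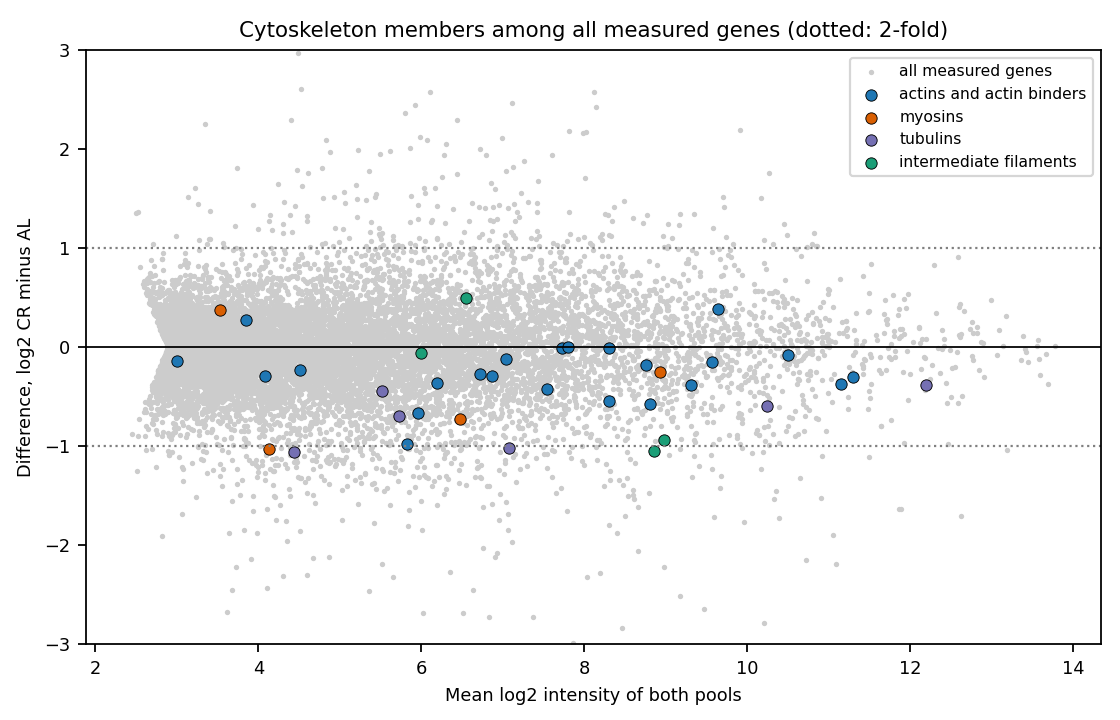
Difference (log2 CR minus AL) against mean log2 intensity of both pools for all 12644 measured genes (grey) and the 37 measured members (coloured by group). The vertical axis ends at 3 on either side and leaves out 26 genes, none of them members. Members spread over the whole range of intensity, and most lie between 0 and 2-fold lower.

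All differences are relative to the typical gene, because the authors' values were normalized between arrays. Scaling on the 18 hybridisation control probe sets, RNAs added before hybridisation that were higher on the CR array by a median of 1.02, moved the median gene to -1.04 and put all 37 members, and 98.3% of all genes, below 0. On the cre control alone the median gene stood at -0.40, and 34 members and 85.3% of all genes below 0. The 24 probe sets of the poly-A controls, other added RNAs, were higher on the CR array by a median of 1.41, which would put the median gene at -1.43. Such a constant shift leaves the members' median 0.28 below that of all genes, but turns the sign of members near 0, and the 5 that stood above 0 were Lmna, Tmsb10, Myl6, Flna and Arpc5.

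Other cytoskeleton genes, 115 in a wider list, lay close to the background. Of 100 measured, 58 stood below 0 (52.1% of all genes), with a median of -0.09. None was 2-fold lower (2.79% of all genes) and 2 were 2-fold higher (1.8%), the skeletal and smooth muscle tropomyosin Tpm2 and the microtubule end-binding protein Mapre2. Tpm2 read 207 in CR and 96.5 in AL, at 1.10, with its lowest probe set at 0.13. Mapre2 read 221 in CR and 91.5 in AL, at 1.27, and its other probe set stood at 1.12. At 1.5-fold, 6 were lower (9.49% of all genes) and 4 higher (6.76%), and these are named after their values were seen. Besides Tpm2 and Mapre2, the higher ones were the cofilin phosphatase Ssh1 at 0.98, with its lowest probe set at -0.48, and the motor Myo1c at 0.71, with another at -0.21. Lower were the myosin light chain Myl12a at -0.89, with another probe set at 0.01, the tubulin cofactor Tbcb at -0.80, Srf at -0.68, the motor Myo6 at -0.67, supervillin, Svil, at -0.66, and the CCT subunit Cct8 at -0.61.

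By class, 40 actin regulators of the wider list had a median of 0.05. Tubulins, tubulin folding factors and microtubule proteins had a median of -0.20, with 21 of 28 below 0 (52.1% of all genes). Among them, all 5 tubulin folding cofactors and 6 of 8 subunits of CCT, the chaperonin that folds actin and tubulin, stood below 0. Their medians were -0.20 and -0.23, and only 1 cofactor, Tbcb, and 1 CCT subunit, Cct8, were 1.5-fold lower (9.49% of all genes). The CCT subunits above 0 were Cct4 at 0.41 and Cct7 at 0.13, but their lowest probe sets stood at -0.21 and -0.52. Among the cofactors, Tbcd had another probe set at 0.06. The myosin class had a median of -0.14 and the intermediate filament and lamina class one of 0.03. Srf read 24.0 in CR and 38.6 in AL, and its other probe set stood at -0.11.

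**Figure D5:**
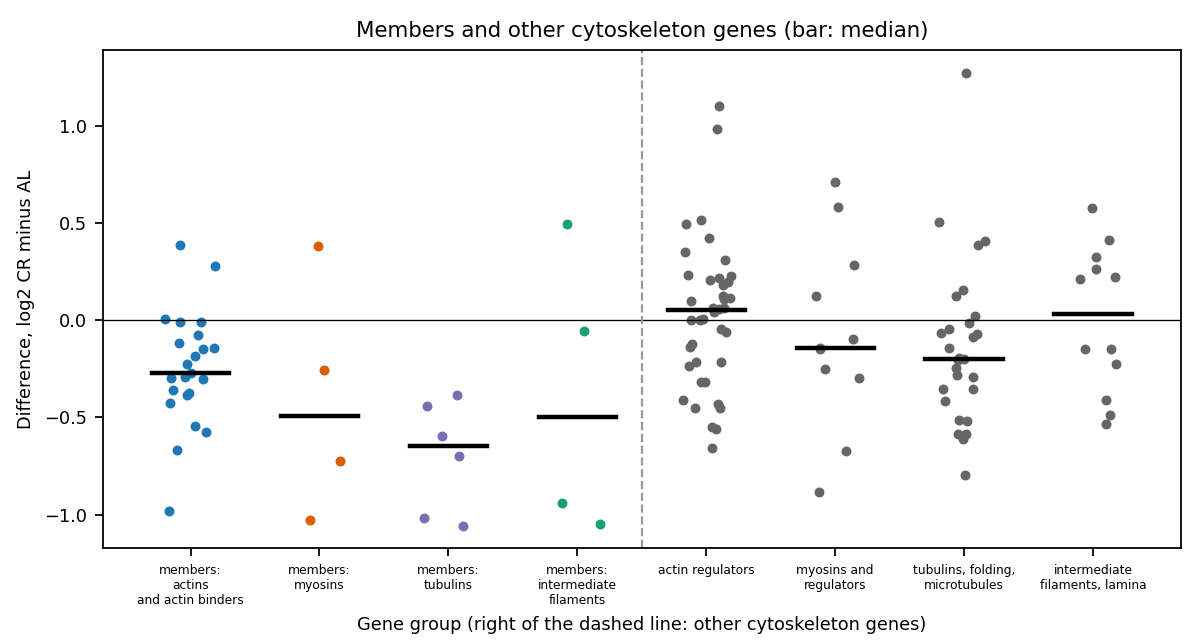
Differences (log2 CR minus AL) of measured genes in the 4 member groups (left of the dashed line) and in 4 classes of other cytoskeleton genes (right), 1 point per gene, with bars at the medians. Member medians run from -0.65 for tubulins to -0.27 for actins and binders, and those of the other classes from -0.20 to 0.05.

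Markers of liver cell types were read beside the members, since the cytoskeleton genes are expressed in several cell types. In a whole-liver pool fewer cells of a type and less RNA per cell cannot be told apart. Each sum below adds readings of different probes and is carried by its brightest markers, so near-equal sums do not show that a cell type was unchanged. Hepatocyte markers were bright in both pools, with Alb, the albumin gene, at 11794 in CR and 12765 in AL, and the summed intensity of 5 markers was 40280 in CR and 41898 in AL. Their median was -0.07, with Tat at 0.43 and Hnf4a at -0.46 at the ends, and the lowest Ttr probe set stood at -1.60. Kupffer cell and leukocyte markers had a median of -0.35, with 9 of 12 below 0 (52.1% of all genes) and a sum of 1899 in CR and 2177 in AL. Cd5l, at 724 in CR and 765 in AL, and Csf1r, at 703 in CR and 747 in AL, gave most of that sum. At least 1.5-fold lower were 5 of the 12 (9.49% of all genes). They were the Kupffer cell genes Timd4 at -0.88, Clec4f at -0.69 and Adgre1 at -0.66, and the neutrophil genes S100a8 and S100a9. Timd4 read 5.63 in CR and 10.4 in AL, so it counted as measured through the AL pool alone. S100a8 and S100a9 alone were 2-fold lower (2.79% of all genes), at -2.29 and -1.75. Both were dim in the CR pool: S100a8 read 10.9 in CR and 53.4 in AL, and S100a9 10.2 in CR and 34.1 in AL. Endothelial markers had a median of -0.15 over 7 measured genes. Their sum, with Pecam1, which lay below the measured range, was 466 in CR and 527 in AL.

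Stellate cell markers had a median of -0.14, with 7 of 9 below 0 (52.1% of all genes) and a sum of 1642 in CR and 1683 in AL. Most of that sum came from Dcn, at 735 in CR and 906 in AL, and Reln, at 564 in CR and 455 in AL. The stellate marker Col1a1 read 6.86 in CR and 9.96 in AL, so it counted as measured through the AL pool alone. Of 6 smooth muscle and myofibroblast markers, Myh11, Cnn1 and Actg2 were below the measured range in both pools, and the sum was 56.7 in CR and 64.3 in AL. Bile duct markers had a median of 0.31 over 4 measured genes, with Krt19 and Cftr below the measured range. Among the 4, Krt7 read 7.49 in CR and 5.98 in AL, so it counted as measured through the CR pool alone. The sum over the 6 with a probe set was 130 in CR and 97.6 in AL, of which Slc4a2 gave 71.5 in CR and 38.4 in AL, and Epcam stood at -0.31. Markers of dividing cells had a median of 0.10 over 4 measured genes, with a sum over the 5 with a probe set of 55.8 in CR and 49.3 in AL. None of the 4 mesothelial markers was measured, with a sum of 24.5 in CR and 20.7 in AL. The part of these cell types in the member differences was not tested.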

How the data were processed

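Trizol was used to extract liver RNA, equal amounts from 3 mice per diet were combined, and cRNA labelled with biotin was made, per the labels' protocols. The deposited table held intensity values of 45101 probe sets, 1 column per pool. Per the submitters' processing notes the authors used RMA. RMA corrects background, normalizes between arrays and summarises probes. The medians, 7.42 in CR and 7.35 in AL, and the maxima, 14045 and 18092, show a linear scale. The sources used here do not give its version, its options or any scaling that followed. No detection calls were used, and the number of arrays, 1 per diet, limits the precision.

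Intensities were transformed to log2 and CR minus AL was taken. Gene symbols came from the platform annotation of August 2016. Probe sets with several symbols and, for gene values, control probe sets were left out. The brightest probe set stood for a gene, the measured range began at an intensity of 7.38, and 2-fold and 1.5-fold were rules of size, not tests. The members, lists and alternatives were chosen with earlier results of these data known. Brightest probe sets and both intensities are given for members at least 1.5-fold different and for others that describe a role, with the rest by difference, and genes of the wider list are named if 2-fold different, besides others said to be named after their values were seen or given as parts of a complex. One class of the wider list is not reported here on its own.

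Alternatives were the mean over probe sets, leaving out probe sets ending in _x_at, _s_at or _a_at, no limit, a limit of 21.0, centring, loess (span 0.4), scaling on controls and a 1.5-fold threshold. Restriction to genes with probe sets of 1 sign was chosen after seeing the data. Steps were tested on simulated data. The planted differences were larger than those of the members' brightest probe sets. They lay in genes well above the limit and were alike on every probe set of a gene. Small differences, dim genes and probe sets that disagree were thus not covered. Promoter windows were those of RefSeq on GRCm38.p6. Calculations used pandas 2.3.3 and numpy 2.4.6 in Python 3.11.15, loess statsmodels 0.14.6, and figures matplotlib 3.10.9.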

Additional observations from a re-analysis of the deposited data

How the results depend on the processing

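Centring the arrays, removing the loess trend, no intensity limit and the stricter limit moved group medians by less than 0.29. That value is the median SD between probe sets of a gene. Each of these settings kept the count of members below 0 within 1.5 times. No limit brought myosins from -0.49 to -0.25 and intermediate filaments from -0.50 to -0.24. The stricter limit brought myosins to -0.73, below tubulins at -0.65. With the loess trend removed Myh10 moved to -0.98, and 3 of 37 members (2.61% of all genes) were 2-fold lower, Tubb5, Tubb6 and Krt8. Averaging all probe sets moved the median of myosins to -0.020 and the count of members 2-fold lower to 0 of 36 (2.02% of all genes). Tubb2a turned to 0.18 under that average and to 0.96 without the probe set types that may read more than 1 transcript. Without those probe sets 3 of 30 members (2.92% of all genes) were 2-fold lower, Myh10, Tubb4b and Tubb6. With probe sets of 1 sign only, 3 of 26 (3.18% of all genes) were 2-fold lower, Myh10, Tubb5 and Krt8. A gene with 1 measured probe set meets that restriction whatever its sign, and Myh10 was such a gene. The Myh10 probe set below the measured range stood at 0.37. Scaling on all hybridisation controls gave medians of -1.32 for all members, -1.29 for actins and binders, -1.51 for myosins, -1.66 for tubulins, -1.51 for intermediate filaments and -1.11 for the wider list, with 33 members and 54.2% of all genes 2-fold lower. On cre alone these were -0.67, -0.64, -0.86, -1.02, -0.87 and -0.46, with 9 members and 8.15% of all genes 2-fold lower. Both scalings subtract a constant. A 1.5-fold threshold gave 10 members lower in place of 4. No paired analysis was possible because each diet had 1 pool, and for the same reason no replicate could be left out. Depth does not apply to arrays, and dim probe sets such as those of Tpm1, Myl6 and Flna lie near the limit of the measured range. Myh10 and Tubb6, counted as 2-fold lower, were about as dim in the CR pool, at 12.3 and 15.0. Averaging all probe sets, also those below the measured range, brought Myh10 to -0.33 and Tubb6 to -0.52. For Myh10 the average took in a probe set that read 5.21 in CR and 4.03 in AL, below that range.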
